A study of Danio rerio with 6 samples.

Results

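Genes of the ubiquitin and proteasome system were read from arrays of whole zebrafish embryos, mutants of *foggy* (*spt5*) and their WT siblings. They were chosen by symbol alone: the proteasome subunits (*psma* to *psmg*) and their assembly factor *pomp*, the activating (*uba*) and conjugating (*ube2*) enzymes, the modifiers (*sumo*, *nedd8*), the ligase genes (*cul*, *skp*, *rbx*, *fbx*, *rnf*, *trim*), the deubiquitinase genes (*usp*, *uch*, *otu*) and the COP9 signalosome (*cops*). The rule found 214 of the 8793 genes that the platform annotation names by 1 symbol. They were 48 proteasome subunits, *pomp*, 89 ligase genes, 32 deubiquitinase genes, 4 activating enzymes, 27 conjugating enzymes, 3 modifiers and 7 COP9 genes, and 3 genes whose symbols only begin like those of the system (*psmc3ip*, *psme3ip1*, *usp6nl*). Membership by name does not establish that each F-box, RING or TRIM protein acts as a ligase in zebrafish. Proteasome subunits are likewise counted by symbol, so activators, an inhibitor and assembly factors with *psm* names are among the 48.

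Ubiquitin is a small protein that is joined to other proteins in a relay. An activating enzyme (E1) charges it, a conjugating enzyme (E2) carries it, and a ligase (E3) selects the protein that receives it, while deubiquitinases remove it again. Proteins that carry chains of ubiquitin are recognised by the regulatory particle of the proteasome, unfolded by its ring of ATPases and cut inside the barrel of the core particle. NEDD8 and SUMO are relatives of ubiquitin with relays of their own, and NEDD8 on a cullin activates the cullin-RING ligases until the COP9 signalosome takes it off.

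The arrays compared embryos of 2 kinds at 24 hpf (hours post fertilization), with 3 arrays of each: fogsk8 mutants and their WT siblings, both from natural spawning, with no other treatment. The comparison asked which transcripts depend on Spt5. The *sk8* allele severely truncates Spt5, a transcription elongation factor, and the mutants still hold some maternal Spt5. Total RNA came from equal numbers of whole embryos, dechorionated by hand or with Pronase. Values are GC-RMA log2 values, in which 1 unit is a 2-fold difference, and genes are called higher or lower where limma gave an adjusted p under 0.05, corrected over the 15502 probe sets tested. A gene is called dim where both group means are under 4, close to the floor of the arrays (their 10th percentiles lay between 2.28 and 2.35).

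The probe set of the mutated gene, *supt5h*, read 7.42, 7.56 and 6.80 in WT and 3.66, 3.70 and 3.81 in mutants (log2 fold change -3.54, SE 0.20, limma adjusted p = 0.000994). Among genes that mark tissues, 10 of 11 skeletal muscle markers, 7 of 8 red blood cell markers and 6 of 8 neuronal markers were lower in mutants, with median log2 fold changes of -2.59, -2.33 and -0.98, whereas 1 of 4 skin markers was (median 0.10). These are levels in whole embryos, so fewer cells of a type and less RNA per cell cannot be told apart. Replicate 3 stood apart in both groups: the mean level of the muscle markers was 12.43 there against 11.40 and 11.41 in WT, and 9.88 against 8.68 and 8.57 in mutants. The part of these differences in the results below was not tested except where values without replicate 3 are given.

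Of the 214 ubiquitin and proteasome genes, 52 were higher and 11 were lower, and 151 did not pass the test. That is 24.3% higher and 5.14% lower, where 10.8% of all genes were higher and 9.14% were lower. The median log2 fold change of the members was 0.18 against 0.057 over all genes, and 170 members had a value above 0 (79.4%), as had 63.7% of all genes. Few members passed 2-fold: 3 were higher (*trim47*, *fbxo46* and *rnf26*) and 4 were lower (*trim55a*, *trim55b*, *usp13* and *sumo2b*), where 0.898% of all genes were higher by that rule and 3.20% were lower. All 3 mutant arrays lay above all 3 WT arrays in 85 members, and below them in 15, against 25.3% and 15.6% of all genes. Of the members, 37 were dim. Over the 177 others the median was 0.25, with 51 higher and 11 lower, and over the 6436 genes that were not dim it was 0.098, with 14.3% higher and 11.7% lower.

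Each call rests on 3 arrays a group, and the count of higher members fell when any 1 array was left out. The count of lower members also fell, except without fogsk8 replicate 3, where it stayed at 11. With 1 array left out, between 21 and 31 members were higher and between 5 and 11 were lower. The share of all genes that was higher then lay between 5.27% and 7.68%, and the share that was lower between 5.21% and 7.84%. Of the 63 members called, 17 were called without any 1 of the 6 arrays, and 7 were lost in each of those fits.

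Set side by side, proteasome subunits were higher in 14 of 48 cases (29.2%) and lower in none, and ligase and deubiquitinase genes were higher in 27 of 121 cases (22.3%) and lower in 7 (5.79%). The median log2 fold change was 0.27 for proteasome subunits and 0.14 for ligase and deubiquitinase genes. At an unadjusted p under 0.05 in limma, 21 proteasome subunits were higher and 1 was lower. By that rule 21.7% of all genes were higher and 14.8% were lower. The methods' t-test with Benjamini-Hochberg adjustment found 3 proteasome subunits higher and none lower. The share of all genes by that test is not given here, so this count has no background beside it. With the replicate numbers as a block in limma, 15 were higher and 1 was lower, where 13.1% of all genes were higher and 12.1% were lower. No proteasome subunit passed 2-fold, in limma at an adjusted or an unadjusted p or in the methods' t-test, whereas 3 ligase genes were higher by that rule, and 2 ligase genes and 1 deubiquitinase gene were lower. Ligase genes alone were higher in 22 of 89 cases and lower in 4 (median 0.17), and deubiquitinase genes in 5 and 3 of 32 (median 0.083). Among genes that were not dim, 14 of 42 proteasome subunits (33.3%) and 22 of 67 ligase genes (32.8%) were higher, with medians of 0.34 and 0.30. Lower were none and 4 (5.97%). Of the deubiquitinase genes that were not dim, 5 of 27 (18.5%) were higher and 3 (11.1%) were lower (median 0.11). Over all genes that were not dim, 14.3% were higher and 11.7% were lower. Whether the proteasome subunits differed from the other members was not tested.

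Without 1 array, the count of proteasome subunits that were higher was 6, 8 and 9 without WT replicates 1, 2 and 3, and 5, 3 and 10 without fogsk8 replicates 1, 2 and 3. The count of ligase and deubiquitinase genes that were higher was 8, 7 and 12 without the WT replicates in the same order, and 15, 13 and 9 without the mutant replicates. The count that was lower was 4, 3 and 4, and then 3, 5 and 7. Of all genes, 5.35%, 5.27% and 7.39% were higher without WT replicates 1, 2 and 3. Without the mutant replicates 6.37%, 5.31% and 7.68% were higher. Lower were 5.21%, 5.66% and 7.68% of all genes without the WT replicates, and 5.61%, 5.67% and 7.84% without the mutant replicates. Without replicate 3 of both groups, 11 of 48 proteasome subunits were higher and none was lower. In that fit 8 of 121 ligase and deubiquitinase genes were higher and 7 were lower, where 7.15% of all genes were higher and 8.78% were lower.

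**Figure D1:**
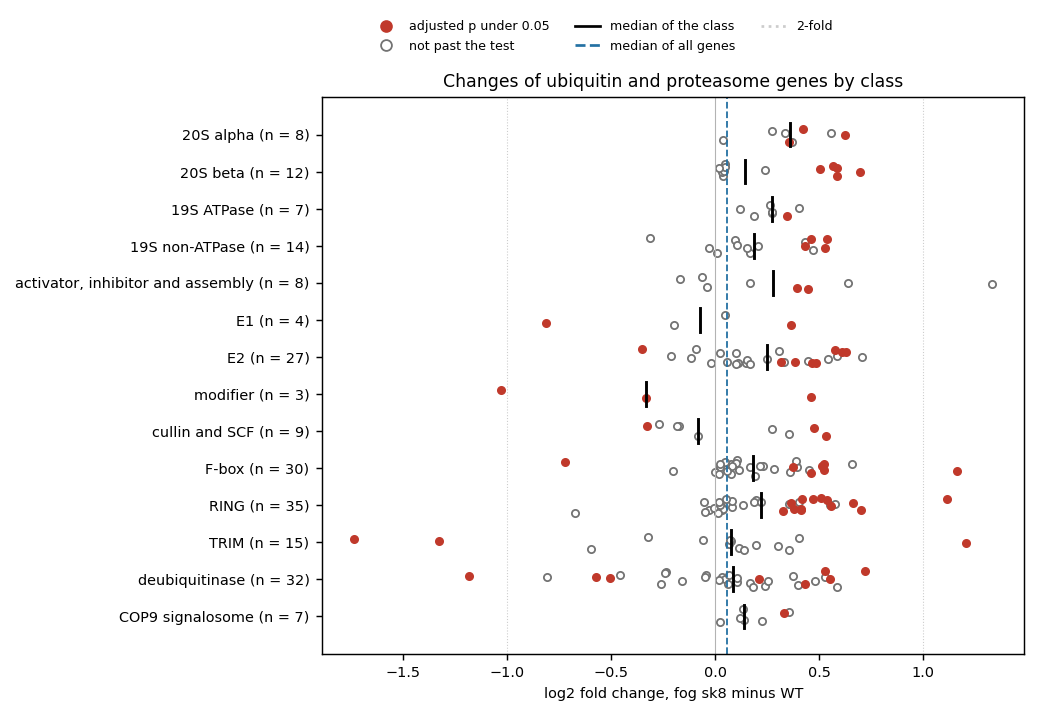
Log2 fold change of each gene (fogsk8 minus WT, horizontal axis) by class of ubiquitin and proteasome gene, with filled points for genes past the test (limma adjusted p under 0.05), open points for the others, a black bar for the median of each class and a dashed line at the median of all genes. The 20 genes of the proteasome core all lie above 0, of which 6 are dim and lie at 0.048 or less. The TRIM genes and deubiquitinases reach from below -1 to above 0.7.

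The core particle of the proteasome (20S) is a barrel of rings of alpha subunits, which form the gates, and rings of beta subunits, which hold the cutting sites. Genes for the core were higher in 8 of 20 cases (40%), 3 of 8 alpha and 5 of 12 beta, and none was lower. Among all genes 10.8% were higher and 9.14% were lower. All 20 had a log2 fold change above 0, as had 63.7% of all genes. However, 6 of the 20 were dim (*psma6l* and the 5 beta genes named below). Their log2 fold changes were 0.017 to 0.048, each smaller than its SE, so their sign says little. Of the 14 that were not dim, 8 were higher (57.1%), against 14.3% of all genes that were not dim. In 12 of the 20 (60%) the mutant arrays all lay above the WT arrays, as in 25.3% of all genes. The 7 beta genes that were not dim had a median log2 fold change of 0.57. Of those 7, 5 were higher (71.4%), against 14.3% of all genes that were not dim. The other 5 beta genes (*psmb8a*, *psmb9a*, *psmb10*, *psmb12* and *psmb13a*), which include the immunoproteasome subunits that replace standard ones in immune cells, had means of 2.08 to 2.71 at the floor of the arrays, where a change may not be seen.

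The largest differences of the core were in *psmb1*, a structural beta subunit, which read 11.09, 11.10 and 10.75 in WT and 11.60, 11.87 and 11.57 in mutants. Every mutant array was above every WT array (log2 fold change 0.70, SE 0.13, limma adjusted p = 0.0224). Its call was lost without WT replicate 1, fogsk8 replicate 1 or fogsk8 replicate 2, with a highest adjusted p of 0.0593. *psma1*, an alpha subunit, read 10.49, 10.44 and 10.15 in WT and 11.04, 11.07 and 10.84 in mutants, again without overlap (0.62, SE 0.12, limma adjusted p = 0.0219). It was lost without WT replicate 2, fogsk8 replicate 1 or fogsk8 replicate 2 (highest adjusted p 0.0704).

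*psmb4*, a structural subunit, was among the steadiest. It read 10.93, 10.96 and 10.81 in WT and 11.42, 11.53 and 11.50 in mutants (0.59, SE 0.07, limma adjusted p = 0.00591). *psmb6*, which encodes a cutting subunit of the standard core, read 10.08, 9.94 and 9.81 in WT and 10.55, 10.54 and 10.45 in mutants (0.57, SE 0.08, limma adjusted p = 0.0116). Both were called in each fit without 1 array, with highest adjusted p-values of 0.0273 and 0.0444. *psmb3*, another structural subunit, read 10.67, 10.64 and 10.39 against 11.14, 11.25 and 11.07 (0.58, SE 0.10, limma adjusted p = 0.0153) and was lost only without fogsk8 replicate 2 (adjusted p = 0.0510).

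The genes of the 2 other cutting subunits of the standard core did not pass the test. *psmb7* read 11.23, 11.23 and 10.96 in WT and 11.30, 11.52 and 11.31 in mutants (0.24, SE 0.11, limma adjusted p = 0.197). *psmb5* read 9.90, 9.94 and 9.62 in WT and 10.04, 9.93 and 9.62 in mutants (0.043, SE 0.14, limma adjusted p = 0.844). In *psmb5* the groups overlapped, whereas in *psmb7* the mutant arrays all lay above the WT arrays. Of the alpha genes, *psma8* read 10.94, 10.87 and 10.55 in WT and 11.05, 11.20 and 11.11 in mutants (0.33, SE 0.12, limma adjusted p = 0.110), also without overlap.

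**Figure D2:**
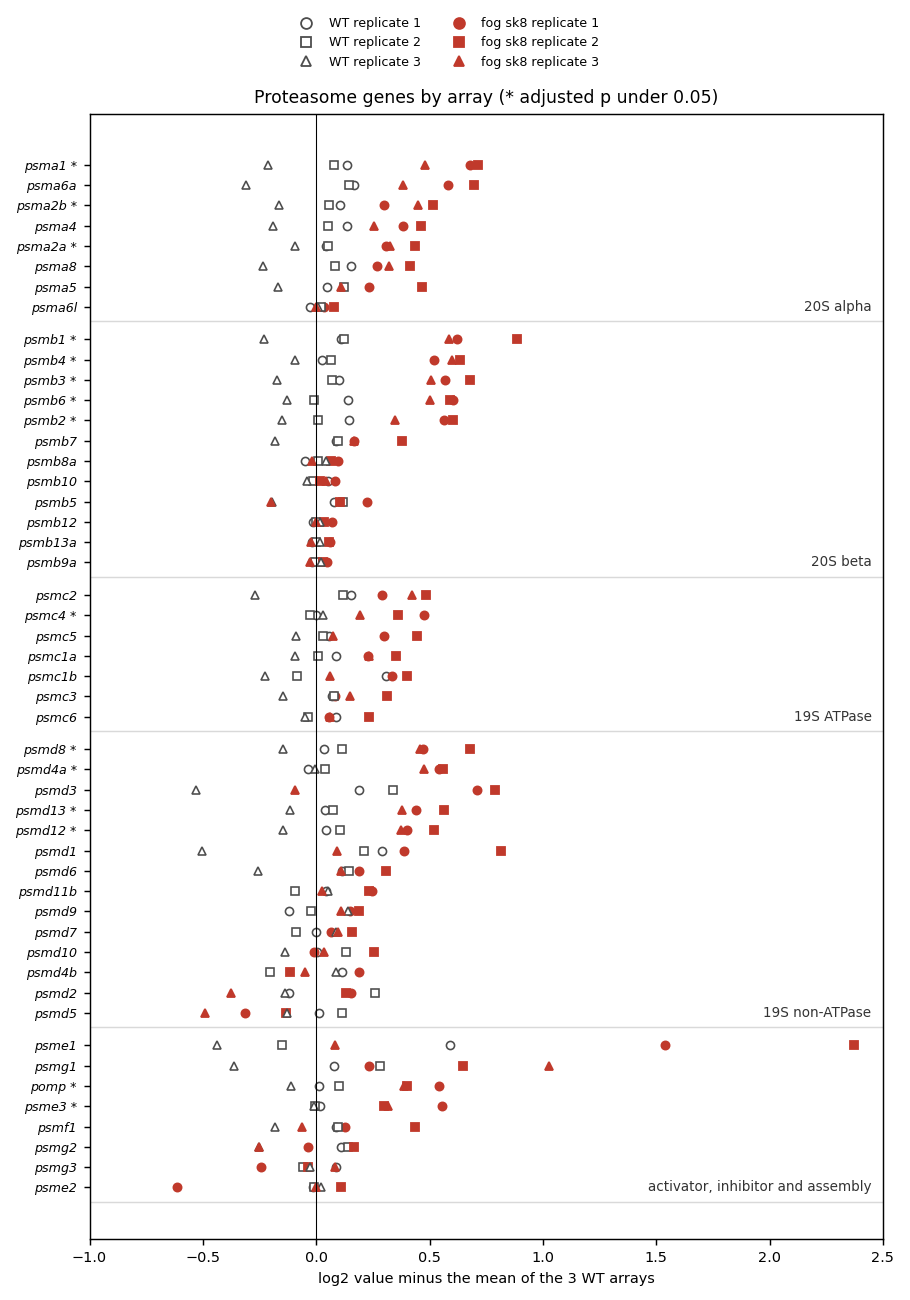
Value of each proteasome gene on each of the 6 arrays, as the log2 value minus the mean of the 3 WT arrays (horizontal axis), with open symbols for WT, filled symbols for fogsk8, and circles, squares and triangles for replicates 1, 2 and 3. Genes with an asterisk passed the test; in most rows the WT triangle lies to the left of the other WT symbols, and the mutant triangle often lies to the left of the other mutant symbols.

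The regulatory particle (19S) binds chains of ubiquitin and feeds the unfolded protein into the core. Its genes, taken by their *psmc* and *psmd* symbols, were higher in 5 of 21 cases (23.8%), and none was lower. Those higher were 1 of 7 ATPases and 4 of 14 other genes. The 14 include assembly factors such as *psmd5*, which helps to build the particle and is not part of it when finished in mammals. The medians of the ATPases and the other genes were 0.27 and 0.19. None of the 21 was dim, and among all genes that were not dim 14.3% were higher and 11.7% were lower. The gene with the largest log2 fold change past the test was *psmd8*, a subunit of the lid, which read 10.86, 10.94 and 10.68 in WT and 11.29, 11.50 and 11.28 in mutants (0.54, SE 0.10, limma adjusted p = 0.0213). It was lost without WT replicate 1, fogsk8 replicate 1 or fogsk8 replicate 2 (highest adjusted p 0.0626). *psmd4a*, for a receptor that binds ubiquitin chains, read 9.53, 9.60 and 9.56 against 10.11, 10.12 and 10.04 (0.53, SE 0.05, limma adjusted p = 0.00438), and it was called in each fit without 1 array. Its paralog *psmd4b* read 8.99, 8.67 and 8.96 against 9.06, 8.76 and 8.82 (0.0079, SE 0.12, limma adjusted p = 0.967). Whether the paralogs differed from each other was not tested.

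The ATPases had similar small differences. Their log2 fold changes ran from 0.12 (*psmc6*) to 0.40 (*psmc2*). In 5 of 7 (71.4%) the mutant arrays all lay above the WT arrays, as in 25.3% of all genes. Only 1 of 7 passed the test (14.3%, the same share as were higher among all genes that were not dim). This gene was *psmc4* (0.34, SE 0.08, limma adjusted p = 0.0454). It was called in 1 of the 6 fits without 1 array, that without fogsk8 replicate 3, and not with the replicate numbers as a block (adjusted p = 0.0638). *psmc3*, the ATPase gene with the highest mean, read 10.84, 10.85 and 10.62 in WT and 10.85, 11.08 and 10.92 in mutants (0.18, SE 0.10, limma adjusted p = 0.259).

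Besides *psmc4*, the block changed the side of the threshold for *psma2b*, *psma6a*, *psma4*, *psmd3* and *psmd5*. *psma2b* lost its call (limma adjusted p = 0.0397, and 0.0544 with the block). *psma6a* and *psma4* gained one (limma adjusted p = 0.0671 and 0.0714, and 0.0190 and 0.0380 with the block). *psmd3*, a lid subunit, read 8.60, 8.75 and 7.88 in WT and 9.12, 9.20 and 8.32 in mutants, so that replicate 3 was lowest in both groups by more than the difference between the groups (0.47, SE 0.33, limma adjusted p = 0.384). With the replicate numbers as a block its adjusted p was 0.0171, and without replicate 3 of both groups it was 0.0437. The proteasome gene furthest below 0 was *psmd5*, a chaperone that helps to build the base in mammals and is not part of the finished particle, with 6.31, 6.41 and 6.17 in WT and 5.98, 6.17 and 5.81 in mutants (-0.31, SE 0.11, limma adjusted p = 0.125, and 0.0428 with the block). These genes, *psmb5*, *psmc2*, *psmc4*, *psmc6*, *psmd4a* and *psmd4b* were named after their values were seen.

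Replicate 3 was low for proteasome genes in both groups. Among the 42 proteasome subunits that were not dim, WT replicate 3 was the lowest WT array in 34, and fogsk8 replicate 3 was the lowest mutant array in 26. The mean level over these 42 genes was 9.18, 9.15 and 8.94 in WT replicates 1 to 3 and 9.40, 9.55 and 9.29 in the mutant replicates. The mutant array was above the WT array of the same number in 36, 39 and 34 of the 42 genes. For the 67 ligase genes that were not dim the means were 6.61, 6.57 and 6.49 in WT and 6.72, 6.75 and 6.80 in mutants, with the mutant array above its namesake in 48, 48 and 50 genes. For the 27 deubiquitinase genes that were not dim they were 6.80, 6.77 and 6.72 against 6.83, 6.80 and 6.79, with 14, 19 and 15 genes. These counts describe the arrays and were not tested. The same counts over all genes are not given here, and 63.7% of all genes had a log2 fold change above 0.

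Activators cap the core in place of the regulatory particle, and a set of chaperones builds the core. Of these 8 genes, *pomp* and the inhibitor gene *psmf1* included, 2 were higher (25.0%) and none was lower. Among all genes 10.8% were higher and 9.14% were lower. None of the 8 was dim, and 14.3% of all genes that were not dim were higher and 11.7% were lower. *pomp*, the maturation factor of the core, read 10.85, 10.94 and 10.72 in WT and 11.38, 11.24 and 11.22 in mutants (0.44, SE 0.08, limma adjusted p = 0.0202), and was lost without WT replicate 1, fogsk8 replicate 1 or fogsk8 replicate 2 (highest adjusted p 0.0646). *psme3*, a nuclear activator, read 9.12, 9.10 and 9.09 against 9.66, 9.40 and 9.42 (0.39, SE 0.08, limma adjusted p = 0.0317), and passed only without fogsk8 replicate 1 among the fits without 1 array. *psme1*, a subunit of the activator that acts with the immunoproteasome, had the highest log2 fold change of all proteasome genes, 1.33, but its mutant arrays read 4.38, 5.21 and 2.92 and its WT arrays 3.43, 2.69 and 2.40, with overlap and near the floor (SE 0.61, limma adjusted p = 0.207). These were also named after their values were seen.

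The E1 enzymes, one for each modifier, did not move together. *uba1*, the main E1 of ubiquitin, read 9.77, 9.73 and 9.998 in WT and 9.77, 9.60 and 9.53 in mutants (-0.20, SE 0.10, limma adjusted p = 0.25), with overlap. *uba3*, the catalytic subunit of the NEDD8 E1, read 8.28, 8.08 and 8.12 against 8.50, 8.52 and 8.56 (0.36, SE 0.07, limma adjusted p = 0.0233), and passed only without WT replicate 1 among the fits without 1 array (highest adjusted p 0.0746). *uba2*, the catalytic subunit of the SUMO E1, read 9.27, 9.15 and 9.21 against 8.37, 8.54 and 8.27, so it was lower on each mutant array (-0.82, SE 0.09, limma adjusted p = 0.00442) and was called in each fit without 1 array. *uba7*, the E1 of the interferon-induced modifier ISG15 in mammals, was dim, with 1.999, 2.004 and 2.03 against 2.09, 2.08 and 2.01.

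The SUMO genes were lower and *nedd8* was higher. *sumo2b* read 10.47, 10.56 and 10.44 in WT and 9.52, 9.41 and 9.46 in mutants, more than 2-fold lower (-1.03, SE 0.06, limma adjusted p = 0.00119), and it was called in each fit without 1 array. *sumo3a* read 10.80, 10.65 and 10.79 against 10.33, 10.41 and 10.50 (-0.34, SE 0.07, limma adjusted p = 0.0330). *nedd8* read 8.59, 8.87 and 8.82 against 9.31, 9.26 and 9.09 (0.46, SE 0.10, limma adjusted p = 0.0357). No array of one group overlapped the other in these 3 genes. *sumo3a* and *nedd8* passed only without fogsk8 replicate 3 among the fits without 1 array, with highest adjusted p-values of 0.104 and 0.105, and with the replicate numbers as a block their adjusted p-values were 0.0507 and 0.0540. Of the SUMO proteases listed beyond the symbol rule, *senp3b* was higher, with 7.47, 7.65 and 7.51 against 7.87, 8.04 and 8.12 (0.47, SE 0.09, limma adjusted p = 0.0221). The others measured, *senp1*, *senp2* and *senp3a*, did not pass (-0.046, 0.092 and 0.10, limma adjusted p = 0.841, 0.646 and 0.589). Of the genes for ubiquitin itself, which also lie beyond the rule, *ubb* read 14.34, 14.31 and 14.53 in WT and 14.54, 14.68 and 14.72 in mutants (0.25, SE 0.09, limma adjusted p = 0.107), and *rps27a* had 0.087 (limma adjusted p = 0.524). These genes were named after their values were seen.

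**Figure D3:**
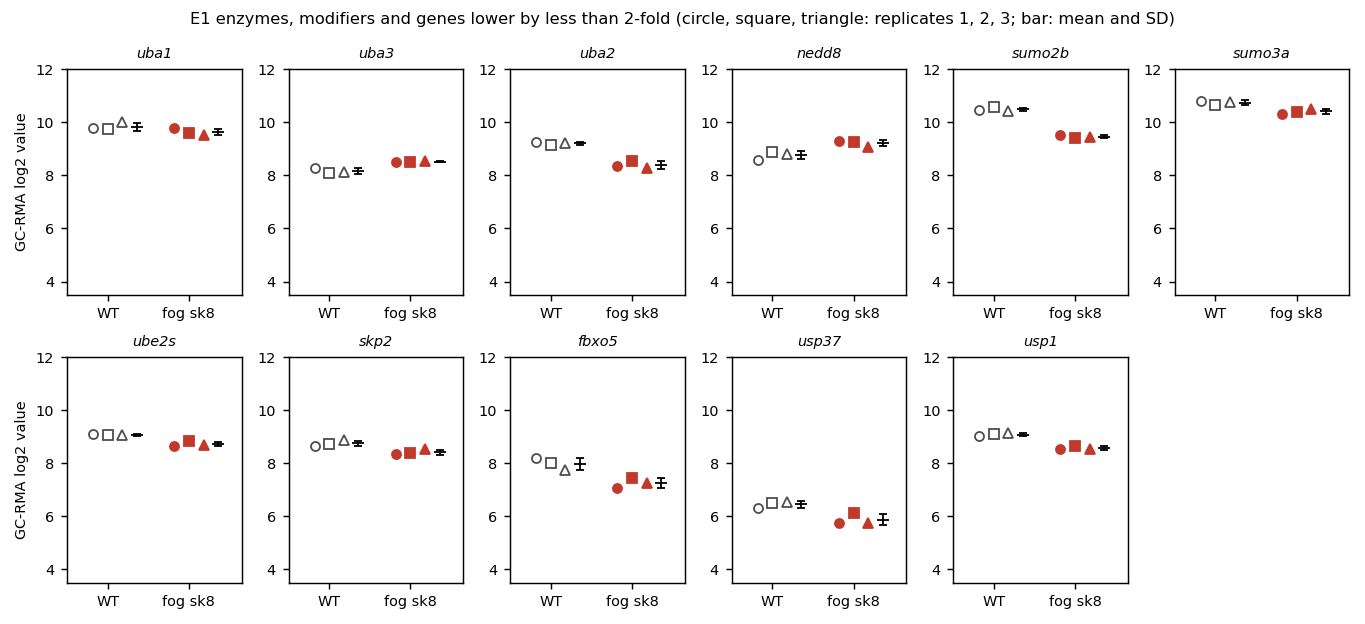
GC-RMA log2 value (vertical axis) on each array for the E1 enzymes that were not dim, the modifiers and the genes lower by less than 2-fold, with circles, squares and triangles for replicates 1, 2 and 3 and a bar for the mean and SD of 3 arrays. *uba2*, *sumo2b* and *sumo3a* are lower and *uba3* and *nedd8* are higher in fogsk8 without overlap, while the groups of *uba1* overlap.

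Of the 27 E2 genes, 7 were higher (25.9%) and 1 was lower (3.70%), with a median of 0.25. Among all genes 10.8% were higher and 9.14% were lower. In 14 (51.9%) of the E2 genes the mutant arrays all lay above the WT arrays, as in 25.3% of all genes. Of the 25 E2 genes that were not dim 6 were higher (24.0%), against 14.3% of all genes that were not dim. *ube2kb*, related to an E2 that builds chains for degradation, read 7.43, 7.37 and 7.37 in WT and 7.87, 7.98 and 8.21 in mutants (0.63, SE 0.10, limma adjusted p = 0.0130). *ube2al*, similar by name to the E2 of histone H2B, read 8.25, 8.29 and 8.19 against 8.75, 8.84 and 8.96 (0.61, SE 0.07, limma adjusted p = 0.00656). *ube2d1a* and *ube2d2l* belong to a family that works with many ligases. *ube2d1a* read 8.29, 8.20 and 8.19 against 8.68, 8.94 and 8.79 (0.58, SE 0.08, limma adjusted p = 0.0102), and *ube2d2l* read 8.57, 8.43 and 8.57 against 8.99, 9.02 and 9.0 (0.48, SE 0.06, limma adjusted p = 0.00759). All 4 were called in each fit without 1 array.

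The E2 that was lower was *ube2s*, which extends chains for the anaphase-promoting complex, the ligase that drives cells out of mitosis. It read 9.11, 9.05 and 9.08 in WT and 8.66, 8.83 and 8.69 in mutants, with no overlap (-0.35, SE 0.06, limma adjusted p = 0.0204). It passed without fogsk8 replicate 2 or 3 and was lost without each of the other 4 arrays (highest adjusted p 0.0718), and its second probe set had a log2 fold change of 0.066 (limma adjusted p = 0.76). *ube2e3* read 9.99, 9.98 and 9.99 against 10.08, 9.85 and 9.73 (-0.093, SE 0.10, limma adjusted p = 0.555). *ube2l3a*, an E2 of ligases that pass ubiquitin through their own cysteine, read 9.25, 9.09 and 9.24 against 10.14, 9.75 and 9.31, a wide spread among mutants (0.54, SE 0.21, limma adjusted p = 0.143).

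Cullins are the scaffolds of the largest ligase family, RBX1 is their RING subunit, and SKP1 joins F-box proteins to CUL1. Of these 9 genes, 2 were higher (22.2%) and 1 was lower (11.1%), where 10.8% of all genes were higher and 9.14% were lower. None of the 9 was dim, and 14.3% of all genes that were not dim were higher and 11.7% were lower. *cul1b* read 7.45, 7.42 and 7.31 in WT and 7.78, 8.05 and 7.94 in mutants (0.53, SE 0.09, limma adjusted p = 0.0160), and was lost only without WT replicate 2 (adjusted p = 0.0501). *rbx1* read 10.67, 10.69 and 10.59 against 11.24, 10.99 and 11.15 (0.48, SE 0.08, limma adjusted p = 0.0171), and was lost without WT replicate 1 or 2 (highest adjusted p 0.0554). *skp1* lay just short of the threshold, with 9.93, 10.05 and 9.85 against 10.15, 10.37 and 10.37 (0.35, SE 0.09, limma adjusted p = 0.0517). *cul3a* read 7.99, 8.09 and 8.20 against 7.93, 7.88 and 7.65 (-0.27, SE 0.10, limma adjusted p = 0.126).

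*skp2*, an F-box protein that directs cell cycle inhibitors to degradation and matched the rule through its *skp* name, was lower. It read 8.66, 8.73 and 8.87 in WT and 8.34, 8.40 and 8.53 in mutants (-0.33, SE 0.08, limma adjusted p = 0.0478). It passed only without fogsk8 replicate 3 among the fits without 1 array (highest adjusted p 0.129). A second probe set of *skp2* had a log2 fold change of -0.23 (limma adjusted p = 0.215). *fbxo5*, an inhibitor of the anaphase-promoting complex, was the only gene with an *fbx* symbol that was lower. It read 8.21, 8.004 and 7.73 against 7.07, 7.45 and 7.25 (-0.72, SE 0.15, limma adjusted p = 0.0305). It was lost without WT replicate 1 or 2 or fogsk8 replicate 1 or 3 (highest adjusted p 0.0868).

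Of the 30 F-box genes, whose proteins pick the targets of SCF ligases, 6 were higher (20%) and 1 was lower (3.33%), and 11 were dim. Among all genes 10.8% were higher and 9.14% were lower. Of the 19 F-box genes that were not dim 31.6% were higher, against 14.3% of all genes that were not dim. *fbxo46* had the largest difference. It read 6.05, 5.84 and 5.66 in WT and 6.91, 7.17 and 6.97 in mutants, more than 2-fold higher (1.16, SE 0.12, limma adjusted p = 0.00469), and was called in each fit without 1 array. *fbxo2*, which binds sugar-bearing proteins in mammals, read 10.44, 10.60 and 10.72 against 11.01, 11.24 and 11.08 (0.52, SE 0.10, limma adjusted p = 0.0218), and was lost without WT replicate 1 or 2 or fogsk8 replicate 2 or 3 (highest adjusted p 0.0660). *fbxo44.1* read 6.06, 6.13 and 6.08 against 6.52, 6.54 and 6.78 (0.52, SE 0.09, limma adjusted p = 0.0157), and was lost only without WT replicate 1 (adjusted p = 0.0563). A second probe set of *fbxo44.1* had 0.32 (limma adjusted p = 0.0841).

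*fbxl5*, which controls the iron regulatory proteins in mammals, read 6.87, 7.06 and 6.58 in WT and 7.39, 7.29 and 7.37 in mutants (0.52, SE 0.13, limma adjusted p = 0.0472). It passed only without WT replicate 2 among the fits without 1 array, and its adjusted p with the block was 0.0533, but a second probe set of the gene also passed (0.40, limma adjusted p = 0.032). The F-box genes with the highest means that did not pass were *fbxo28*, with a log2 fold change of 0.21 (limma adjusted p = 0.251), and *fbxl14a*, with 0.23 (limma adjusted p = 0.229).

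RING genes had the highest share of calls among the ligase classes. Of 35, 13 (37.1%) were higher and none was lower (all genes 10.8% and 9.14%). At an unadjusted p under 0.05 in limma, 16 were higher and 1 was lower (all genes 21.7% and 14.8%). The median log2 fold change of the RING genes was 0.22. *rnf26*, a membrane ligase of the endoplasmic reticulum, read 4.07, 4.13 and 4.34 in WT and 5.21, 5.24 and 5.43 in mutants, more than 2-fold higher (1.12, SE 0.10, limma adjusted p = 0.00308), and was called in each fit without 1 array. So was *rnf8*, a ligase of the DNA damage response, with 6.21, 6.30 and 6.15 against 6.81, 6.64 and 6.81 (0.54, SE 0.07, limma adjusted p = 0.00962), named after its values were seen. The other 11 were lost without at least 1 array.

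*rnf216* read 5.14, 4.81 and 4.76 in WT and 5.76, 5.46 and 5.597 in mutants (0.70, SE 0.13, limma adjusted p = 0.0211), and was lost without WT replicate 2 or fogsk8 replicate 1 or 3 (highest adjusted p 0.0671). *rnf103*, another ligase of the endoplasmic reticulum, read 5.35, 5.32 and 5.45 against 6.10, 5.74 and 6.27 (0.66, SE 0.14, limma adjusted p = 0.0310), and passed only without fogsk8 replicate 2 among the fits without 1 array. *rnf25* read 6.71, 6.77 and 6.93 against 7.60, 7.19 and 7.28 (0.56, SE 0.13, limma adjusted p = 0.0366), and passed in no fit without 1 array (adjusted p 0.0508 to 0.108). In all 3 genes the groups did not overlap. *rnf40*, of the ligase that marks histone H2B, read 8.17, 8.05 and 7.97 against 8.11, 7.93 and 7.98 (-0.054, SE 0.08, limma adjusted p = 0.677, with the sign turned to 0.00026 without WT replicate 1). *rnf145b* read 7.84, 7.64 and 8.11 against 7.82, 7.93 and 7.75 (-0.029, SE 0.13, limma adjusted p = 0.888), and its sign turned under some settings too.

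TRIM genes ran to both ends of the range. Of 15, 1 was higher (6.67%) and 2 were lower (13.3%), all 3 by more than 2-fold, and 5 were dim. Among all genes 10.8% were higher and 9.14% were lower. *trim47* read 5.08, 5.13 and 4.76 in WT and 5.82, 6.36 and 6.40 in mutants (1.21, SE 0.19, limma adjusted p = 0.0138). It was called in each fit without 1 array, but not without replicate 3 of both groups (0.98, adjusted p = 0.0671). *trim71*, the homolog of the heterochronic gene *lin-41* of worms, read 7.71, 8.12 and 7.49 against 8.19, 8.17 and 8.01 (0.35, SE 0.17, limma adjusted p = 0.219).

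**Figure D4:**
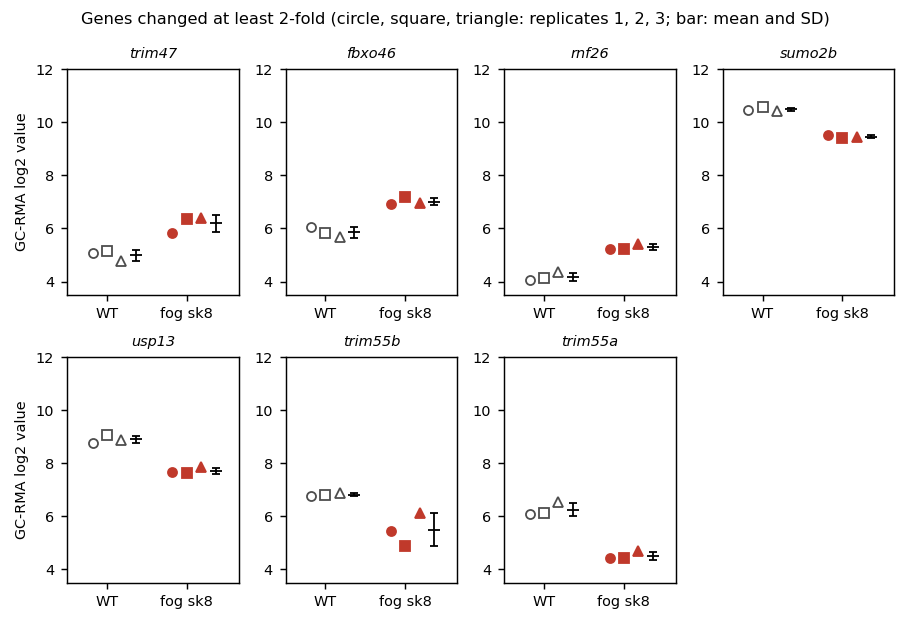
GC-RMA log2 value (vertical axis) on each array for the 7 members past 2-fold, with circles, squares and triangles for replicates 1, 2 and 3 and a bar for the mean and SD of 3 arrays. In each panel the groups do not overlap, and the mutant arrays of *trim55b* are the most spread.

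The TRIM genes that were lower encode muscle proteins, bound to the sarcomere in mammals. *trim55a* read 6.08, 6.15 and 6.53 in WT and 4.44, 4.42 and 4.68 in mutants, the largest difference among the members (-1.74, SE 0.15, limma adjusted p = 0.00255), and was called in each fit without 1 array. *trim55b* read 6.77, 6.80 and 6.89 against 5.46, 4.89 and 6.13, with mutant replicate 3 nearest to WT (-1.33, SE 0.30, limma adjusted p = 0.0366). Without fogsk8 replicate 3 its log2 fold change was -1.65 (adjusted p = 0.0166), and it did not pass without any 1 of the 5 other arrays (highest adjusted p 0.1002).

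*trim63a*, of the same muscle family, read 7.59, 7.65 and 8.06 in WT and 7.05, 6.64 and 7.82 in mutants (-0.60, SE 0.32, limma adjusted p = 0.266). Its paralog *trim63b* read 5.57, 5.35 and 5.39 against 4.85, 4.75 and 5.75 (-0.32, SE 0.27, limma adjusted p = 0.467), and without replicate 3 of both groups its adjusted p was 0.0384, and it was named after its values were seen. Mutant replicate 3 was the highest mutant array for all 4 of these genes. The same array had the highest mean of the 11 skeletal muscle markers among mutants, and all 6 arrays are given for that mean above. The part of muscle content in these 4 genes was not tested.

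**Figure D5:**
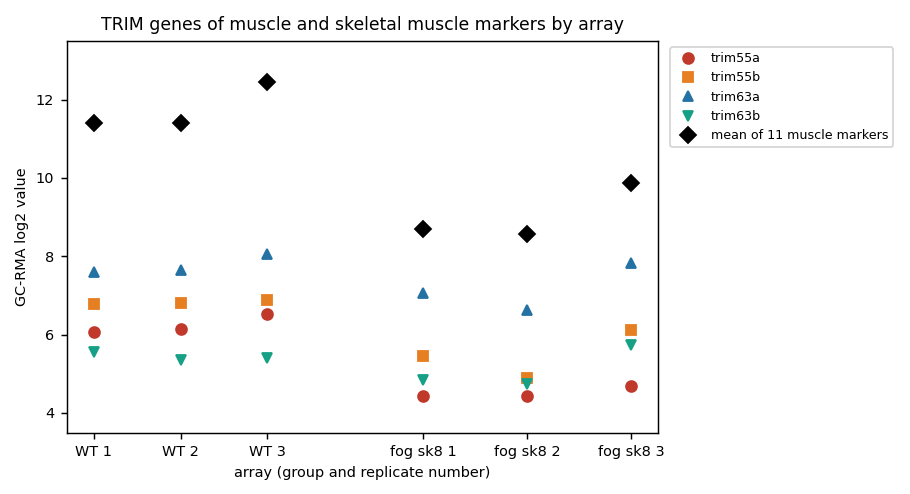
GC-RMA log2 value (vertical axis) of *trim55a*, *trim55b*, *trim63a* and *trim63b* and the mean of 11 skeletal muscle markers (diamonds) on each of the 6 arrays (horizontal axis). The diamonds lie between 11.40 and 12.43 in WT and between 8.57 and 9.88 in fogsk8, and fogsk8 replicate 3 is the highest mutant array for all of them.

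Of the 32 deubiquitinase genes, 5 were higher (15.6%), 3 were lower (9.38%) and 24 did not pass, where 10.8% of all genes were higher and 9.14% were lower. Among the 27 that were not dim 18.5% were higher and 11.1% were lower, near the 14.3% and 11.7% of all genes that were not dim. *otulina* and *otulinb*, related by name to the enzyme that cuts linear ubiquitin chains, were both higher. *otulina* read 4.25, 4.17 and 4.16 in WT and 4.55, 4.92 and 5.26 in mutants (0.72, SE 0.18, limma adjusted p = 0.0471), and passed only without fogsk8 replicate 1 among the fits without 1 array. *otulinb* read 6.55, 6.33 and 6.65 against 7.23, 6.87 and 7.07 (0.55, SE 0.13, limma adjusted p = 0.0370), and was lost without WT replicate 1 or 2 or fogsk8 replicate 1 or 3 (highest adjusted p 0.0931).

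*usp12a* read 4.98, 4.84 and 4.83 in WT and 5.56, 5.24 and 5.43 in mutants (0.53, SE 0.10, limma adjusted p = 0.0218), and *usp3*, which acts on histones in mammals, read 6.22, 6.06 and 6.23 against 6.71, 6.46 and 6.63 (0.43, SE 0.09, limma adjusted p = 0.0284). *usp12a* passed without WT replicate 1 or fogsk8 replicate 2 and *usp3* only without fogsk8 replicate 2 among the fits without 1 array, with highest adjusted p-values of 0.0707 and 0.0812. The fifth gene, *usp38*, had a log2 fold change of 0.21 (limma adjusted p = 0.0456, and 0.0998 with the block) and passed in no fit without 1 array. It was named after its values were seen.

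The 3 deubiquitinase genes that were lower were *usp13*, *usp37* and *usp1*. *usp13* read 8.76, 9.06 and 8.88 in WT and 7.68, 7.62 and 7.85 in mutants, more than 2-fold lower (-1.19, SE 0.10, limma adjusted p = 0.00274). *usp1*, a deubiquitinase of DNA repair proteins, read 9.02, 9.11 and 9.13 against 8.56, 8.65 and 8.53 (-0.51, SE 0.06, limma adjusted p = 0.00703). Both were called in each fit without 1 array. *usp37*, which stabilises cyclin A in mammals, read 6.31, 6.49 and 6.54 against 5.77, 6.11 and 5.76 (-0.57, SE 0.12, limma adjusted p = 0.0310). It passed only without fogsk8 replicate 2 among the fits without 1 array (highest adjusted p 0.0907). Further probe sets of *usp37* did not pass. They had -0.17 (limma adjusted p = 0.426) and, with means of 2.68 and 2.43 near the floor, -0.0054 and -0.0080.

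The deubiquitinase genes with the highest means that did not pass were *usp7*, which acts on p53 and its ligase in mammals, and *usp5*, which takes apart free ubiquitin chains. *usp7* read 9.34, 9.11 and 8.87 in WT and 8.87, 9.0 and 8.67 in mutants (-0.26, SE 0.15, limma adjusted p = 0.290), and a second probe set of the gene had -0.47 (limma adjusted p = 0.0485). *usp5* read 9.04, 9.01 and 8.79 against 8.98, 9.02 and 8.68 (-0.050, SE 0.12, limma adjusted p = 0.797, with the sign turned to 0.058 without fogsk8 replicate 3). Deubiquitinase genes whose proteins associate with the proteasome include *usp14* and *uchl5*, named after their values were seen. They had log2 fold changes of 0.18 and 0.17 (limma adjusted p = 0.0606 and 0.547).

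All 7 COP9 signalosome genes had log2 fold changes above 0 (0.022 to 0.35, median 0.14), as had 63.7% of all genes. In limma 1 was higher (14.3%, the same share as among all genes that were not dim) and none was lower. At an unadjusted p under 0.05 in limma, 2 were higher and none was lower (all genes 21.7% and 14.8%). The gene that passed was *cops5*, the catalytic subunit that removes NEDD8 from cullins. It read 8.35, 8.35 and 8.21 in WT and 8.68, 8.66 and 8.55 in mutants (0.33, SE 0.07, limma adjusted p = 0.0295). It passed only without fogsk8 replicate 3 among the fits without 1 array (highest adjusted p 0.0929). Further probe sets of *cops5* had 0.21 (limma adjusted p = 0.310) and, with a mean of 1.83 at the floor, 0.14 (limma adjusted p = 0.468). *cops2* and *cops3* had log2 fold changes of 0.022 and 0.14 (limma adjusted p = 0.805 and 0.246).

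Other genes of the system lie outside the symbol rule. Of a list of 106, 60 were measured, of which 7 were higher (11.7%) and 3 were lower (5.0%), near the 10.8% of all genes for higher and under the 9.14% for lower, with a median log2 fold change of 0.13. The 1 past 2-fold was *anapc13*, a small subunit of the anaphase-promoting complex, which read 6.33, 6.32 and 5.996 in WT and 7.47, 7.14 and 7.42 in mutants (1.13, SE 0.13, limma adjusted p = 0.00633). The others that were higher were *anapc10* (0.30) of the same complex, *vcp* (0.42) and *ufd1l* (0.38), which pull marked proteins out of membranes and complexes, the autophagy receptor *sqstm1* (0.68), the chaperone-bound ligase *stub1* (0.48), and *senp3b*. Those that were lower were *cdc20* (-0.60), the activator of the anaphase-promoting complex in mitosis, *dtl* (-0.68), a cullin receptor of DNA replication, and *mdm4* (-0.58), a partner of the p53 ligase. The limma adjusted p-values of these 9 genes without *anapc13* lay between 0.0157 and 0.0458. Of the transcription factors known to drive proteasome genes in mammals, the measured one was *nfe2l2a* (-0.31, limma adjusted p = 0.42).

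Of 16 pairs of *a* and *b* paralogs among the members, 3 had both genes called the same way (*psma2a* and *psma2b*, *trim55a* and *trim55b*, *otulina* and *otulinb*), and no pair was called in opposite directions. In 4 pairs 1 paralog was called. *ube2d1a* had 0.58 against 0.15 for *ube2d1b*, *cul1b* had 0.53 against -0.17 for *cul1a*, and *rnf11a* had 0.47 against 0.19 for the dim *rnf11b*, besides *psmd4a*. The differences within pairs were not tested, and transcripts of similar paralogs may share signal on an array. Where a member had several probe sets (37 members), all had the same sign in 25, and none was called in opposite directions. Of the 9 called members with several, 2 (*fbxl5* and *fbxw2*) were also called on a further probe set. Some members that were not called had a further probe set that passed. Besides *usp7*, these were *psmg1* (0.44, limma adjusted p = 0.0272, against 0.64 and 0.154 on the probe set read) and *ube2g1b* (0.79, limma adjusted p = 0.0150, against 0.45 and 0.0634).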

How the data were processed

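Total RNA of whole embryos was hybridised to the Affymetrix Zebrafish Genome Array, 1 array for each of 6 samples, grouped by the genotype in the labels. The values the authors deposited are log2 values from GC-RMA, a method that models background from the base content of each probe, normalizes between arrays and sums each probe set into 1 value. No version of it is given in the sources used here, and its steps were not run again. Because GC-RMA brings low signals to a common floor, changes of dim genes are understated.

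From these values, 15502 probe sets (115 control probe sets of 15617 left out) entered limma (version 3.58.1, in R 4.3.3), where lmFit and eBayes compared the groups without covariates and the Benjamini-Hochberg correction covered all of them. Of these probe sets, 10795 had 1 symbol in the platform's table, which can be old, 135 had several and 4572 had none. Each gene was represented by the probe set that had the highest mean, and no level was compared between genes as an amount. The Entrez IDs of all 214 members were found in a RefSeq table of GRCz12tu, with the same symbols, which was used only for names. Sequences were not used here. The study calls its replicates independent, and with 3 in a group precision is limited.

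The members, gene lists and classes were chosen with earlier results of these data known. In the proteasome, the genes named were in each direction the 6 called genes with the largest log2 fold change, and the 3 that were not called with the highest mean. In every other class they were the 4 and the 2, with every member past 2-fold, *supt5h* and other pathway genes past 2-fold. All other genes given with values were named after these were seen, or as paralogs of a named gene or called genes of the other pathway list. Alternatives were the methods' t-test, a 2-fold minimum, a mean-variance trend, centring on array medians, leaving out dim probe sets, a further quantile normalization, the mean of a gene's probe sets, the replicate block, and each array left out.

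Same-numbered arrays of the 2 groups deviated together from their group means over all probe sets (correlations 0.12, 0.291 and 0.394 for replicates 1, 2 and 3), so the replicate numbers of the labels were also taken as a block. Replicates 1 and 2 correlated across numbers as well (0.184 and 0.148), so that the pairing seen is mainly that of replicate 3.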

Additional observations from a re-analysis of the deposited data

How the results depend on the processing

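Of the 214 members, 52 were higher and 11 lower. Centring arrays on their medians gave 63 and 10, and another quantile normalization gave 47 and 11. The mean-variance trend gave 48 and 11, and the mean of a gene's probe sets 52 and 8. Of all genes, the main fit called 10.8% higher and 9.14% lower, and centring called 13.7% and 8.75%. The quantile normalization called 10.5% and 8.56%, and the trend 10.2% and 9.34%. Shares of all genes are not given here for the mean of probe sets or the methods' t-test. The methods' t-test (unadjusted, 2-fold) gave 3 and 4, with 0 proteasome subunits higher and 3 ligase and deubiquitinase genes higher and 3 lower. With Benjamini-Hochberg adjustment it gave 12 and 6, with 3 proteasome subunits higher, 5 ligase and deubiquitinase genes higher and 3 lower. A 2-fold minimum in limma gave 3 and 4, with 0 proteasome subunits, and 3 ligase and deubiquitinase genes higher and 3 lower. By that rule 0.898% of all genes were higher and 3.20% were lower. Leaving out 1 array at a time gave 21 to 31 members higher and 5 to 11 lower. It gave 3 to 10 proteasome subunits higher and 0 lower, and 7 to 15 ligase and deubiquitinase genes higher and 3 to 7 lower. The share of all genes then lay between 5.27% and 7.68% for higher and between 5.21% and 7.84% for lower. Without replicate 3 of both groups, chosen after seeing the data, 25 members were higher and 9 lower, and 8 ligase and deubiquitinase genes were higher. In that fit 7.15% of all genes were higher and 8.78% were lower. Counting the 3 genes that only share a prefix changed no count.

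With the replicate block, 51 members were higher and 13 lower, with 15 proteasome subunits higher and 1 (*psmd5*) lower. There were 25 ligase and deubiquitinase genes higher and 9 lower, where 13.1% of all genes were higher and 12.1% were lower with the block. Of the 63 calls, 52 were shared with the block, and 12 members were called only with it. Among the genes named by rule the block changed the calls of *nedd8*, *sumo3a* and *fbxl5* and no other.

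The sign turned in 3 genes that were not called. Leaving out 1 array gave log2 fold changes of -0.11 to 0.00026 for *rnf40*, -0.14 to 0.095 for *rnf145b* and -0.13 to 0.058 for *usp5*. The log2 fold change of *rnf40* was 0.00026 without WT replicate 1, that of *usp5* was 0.058 without fogsk8 replicate 3, and that of *rnf145b* was 0.0099 after median centring, 0.095 without WT replicate 3, 0.011 without fogsk8 replicate 3 and 0.13 without replicate 3 of both groups. Over the genes named by rule and all alternatives, 690 results kept their direction and their side of the threshold, 225 kept the direction and lost the call, 6 gained a call and 6 turned.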
